A study of Homo sapiens with 4 samples.

Results

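The canonical Wnt pathway was read from 10 genes across HCT116 libraries: beta-catenin itself (CTNNB1), the factors that bind it on DNA (TCF7, LEF1), negative feedback genes (AXIN2, NKD1, RNF43, ZNRF3) and targets of the pathway in colon crypts (LGR5, CD44, EPHB2). They were chosen by symbol, and all 10 members were found among the 20812 amplicon targets, 1 target per gene. HCT116 is a human colon cancer cell line whose own CTNNB1 gene is mutated; read counts do not show that mutation. The 4 groups were hIDO1-overexpressing cells with 1 mM indole, the same cells with the solvent DMF, wild type cells with 1 mM indole and wild type cells with DMF, each for 24 h. Indole is a bacterial product of tryptophan, and IDO1 starts the breakdown of tryptophan in human cells. How the overexpressing line was made, and whether it is 1 clone, was not given in the sources used here. Each group had 1 library.

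Without a Wnt signal, a complex of APC, axin and the kinases GSK3 and CK1 marks beta-catenin for destruction. A Wnt ligand on a Frizzled and LRP receptor stops this, and beta-catenin then joins TCF/LEF factors to switch on target genes. Several targets feed back on the pathway: axin 2 rebuilds the destruction complex, NKD1 binds Dishevelled, and the membrane ubiquitin ligases RNF43 and ZNRF3 remove Frizzled from the cell surface. In colon crypts the pathway maintains stem cells, which LGR5 marks, and the receptors CD44 and EPHB2 are highest near the crypt base. Mutations that shield beta-catenin from destruction keep the pathway on in many colon cancers.

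Library totals were 19069730 reads for the IDO1 line with indole, 22736172 for the IDO1 line with DMF, 18283862 for wild type with indole and 22673148 for wild type with DMF. IDO1 had 2440 and 3451 reads in the IDO1 line with indole and with DMF, against 2 and 0 in wild type with indole and with DMF, as the labels say. Of 9 colon epithelium markers, 6 reached 1 CPM in every library, among them EPCAM, KRT8 and CDX2. CDX1 was at 0 in all 4 libraries, and CDH17 and VIL1 had at most 2 reads. Wild type with indole was the library farthest from the rest: between 2.9% and 4.51% of genes were at least 2-fold from it in the other 3 libraries, against 0.0821% to 0.447% among those 3. Of the 4 pairs compared here, 2 use that library. Each of the other libraries is also in 2 pairs, and pairs that share a library are not independent of each other.

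Levels are given as CPM, the reads of a target scaled to a common library size by TMM over the 4 libraries. Intervals cover 95% counting error only and compare libraries, not conditions, because PCR reads are not independent molecules and no group had a replicate. Each target amplifies with its own efficiency, so levels of different genes are not ranked. In bulk RNA, fewer cells of a type and less RNA per cell cannot be told apart.

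The clearest differences among the members were in CD44 and EPHB2, and the bases before their RefSeq start sites are shown because both genes were highest in the same library. ZNRF3 was highest there too, by less, and no window matched it. Capitals mark the GC box GGGCGG or its reverse complement, the sequence known for binding Sp1.
CD44: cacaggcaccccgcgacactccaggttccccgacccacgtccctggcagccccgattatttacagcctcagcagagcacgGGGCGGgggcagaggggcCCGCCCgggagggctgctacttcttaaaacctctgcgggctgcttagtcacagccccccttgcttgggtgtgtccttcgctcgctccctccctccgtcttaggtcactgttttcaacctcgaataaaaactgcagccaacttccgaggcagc
EPHB2: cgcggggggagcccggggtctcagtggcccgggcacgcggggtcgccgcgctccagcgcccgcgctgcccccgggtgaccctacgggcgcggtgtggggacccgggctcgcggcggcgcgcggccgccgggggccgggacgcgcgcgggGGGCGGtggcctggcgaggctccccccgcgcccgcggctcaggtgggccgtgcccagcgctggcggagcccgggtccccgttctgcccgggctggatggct

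These are the 250 bases before the start at chr11:35138921-35139170 for CD44 and at chr1:22710588-22710837 for EPHB2, both on the plus strand of GRCh38.p14. GC content was 62.4% for CD44 and 84.8% for EPHB2. The CD44 window held GC boxes starting 170 and 152 bases before the start, and the EPHB2 window held 1 that starts 101 bases before it. On both strands of all 35116 RefSeq windows of this length, 42.6% held a GC box, 2.26% the TCF/LEF site CTTTGAT, 42.1% its core CTTTG, which is part of that site, and 6.57% the AP-1 site TGANTCA. Of the members, 6 of 10 matched a window, and AXIN2, LGR5, NKD1 and ZNRF3 did not. CTTTGAT was in 0 of the 6 matched members, the core in 3 (LEF1, RNF43 and TCF7), the GC box in 5, all but RNF43, and the AP-1 site in RNF43 alone. A member was counted if any of its windows held the letters, while the shares above are of windows, so these counts and shares are unlike measures. A window without these letters says nothing of binding elsewhere in the gene.

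CTNNB1, the signal carrier of the pathway, had 376 CPM in the IDO1 line with indole, 401 in that line with DMF, 319 in wild type with indole and 370 in wild type with DMF. The highest library was 1.26-fold above the lowest. Its ratio of indole to DMF was 0.938 in the IDO1 line (0.909 to 0.967) and 0.862 in wild type (0.833 to 0.891). The IDO1 line was 1.18-fold above wild type in indole (1.14 to 1.22) and 1.08-fold above it in DMF.

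LEF1 and TCF7, the DNA-binding partners among the members, were at or near the floor of 3 reads, the limit that a count of 0 allows. LEF1 had 7 and 3 reads in the IDO1 line with indole and with DMF, against 0 in both wild type libraries. In indole the exact interval of its ratio, IDO1 line over wild type, began at 1.46, and no fold is given in DMF, where both libraries were at or under the floor. TCF7 had 0 reads in both libraries of the IDO1 line and 1 read in each wild type library.

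The related factors TCF7L2 and TCF7L1 were read from other targets. TCF7L2, the TCF factor best known from intestinal epithelium, had 7046 and 9988 reads in the IDO1 line with indole and with DMF, against 10615 and 10390 in wild type with indole and with DMF. The ratio of the IDO1 line to wild type was 0.671 in indole (0.651 to 0.692) and 0.896 in DMF (0.872 to 0.921). TCF7L1, named after its values were seen, had between 108 and 186 reads.

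Feedback genes stayed within a narrow range of levels. AXIN2, the axin made in response to Wnt, had 15.0 CPM in the IDO1 line with indole, 15.3 in that line with DMF, 11.3 in wild type with indole and 15.6 in wild type with DMF. Wild type with indole was the low library and the other 3 overlapped in their counting intervals. The ratio of indole to DMF was 0.978 in the IDO1 line (0.833 to 1.15), and in wild type AXIN2 was 1.39-fold lower with indole (1.16 to 1.65).

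RNF43 followed the same order of libraries. It had 57.5 and 57.9 CPM in the IDO1 line with indole and with DMF, against 49.3 and 59.4 CPM in wild type with indole and with DMF. Its indole ratio was 0.992 in the IDO1 line (0.915 to 1.08), and in wild type it was 1.20-fold lower with indole (1.11 to 1.31). On the log2(CPM + 1) scale centred on each gene's mean, CTNNB1, AXIN2 and RNF43 lay at most 0.16 from each other over the 4 libraries, the smallest distances among the 7 members with at least 10 CPM. This distance over 4 libraries is a description without a test.

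ZNRF3, the partner ligase of RNF43, went the other way in wild type. It had 31.3 and 35.7 CPM in the IDO1 line with indole and with DMF, against 40.8 and 36.0 CPM in wild type with indole and with DMF. With indole it was 1.14-fold lower in the IDO1 line (1.03 to 1.27) and 1.13-fold higher in wild type (1.02 to 1.25). NKD1 had 11.9 and 9.77 CPM in the IDO1 line with indole and with DMF, and 11.8 and 10.8 CPM in wild type with indole and with DMF. Its counting interval excluded 1 in 1 of the 4 pairs, the indole pair of the IDO1 line, with a ratio of 1.22 (1.01 to 1.47).

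**Figure D1:**
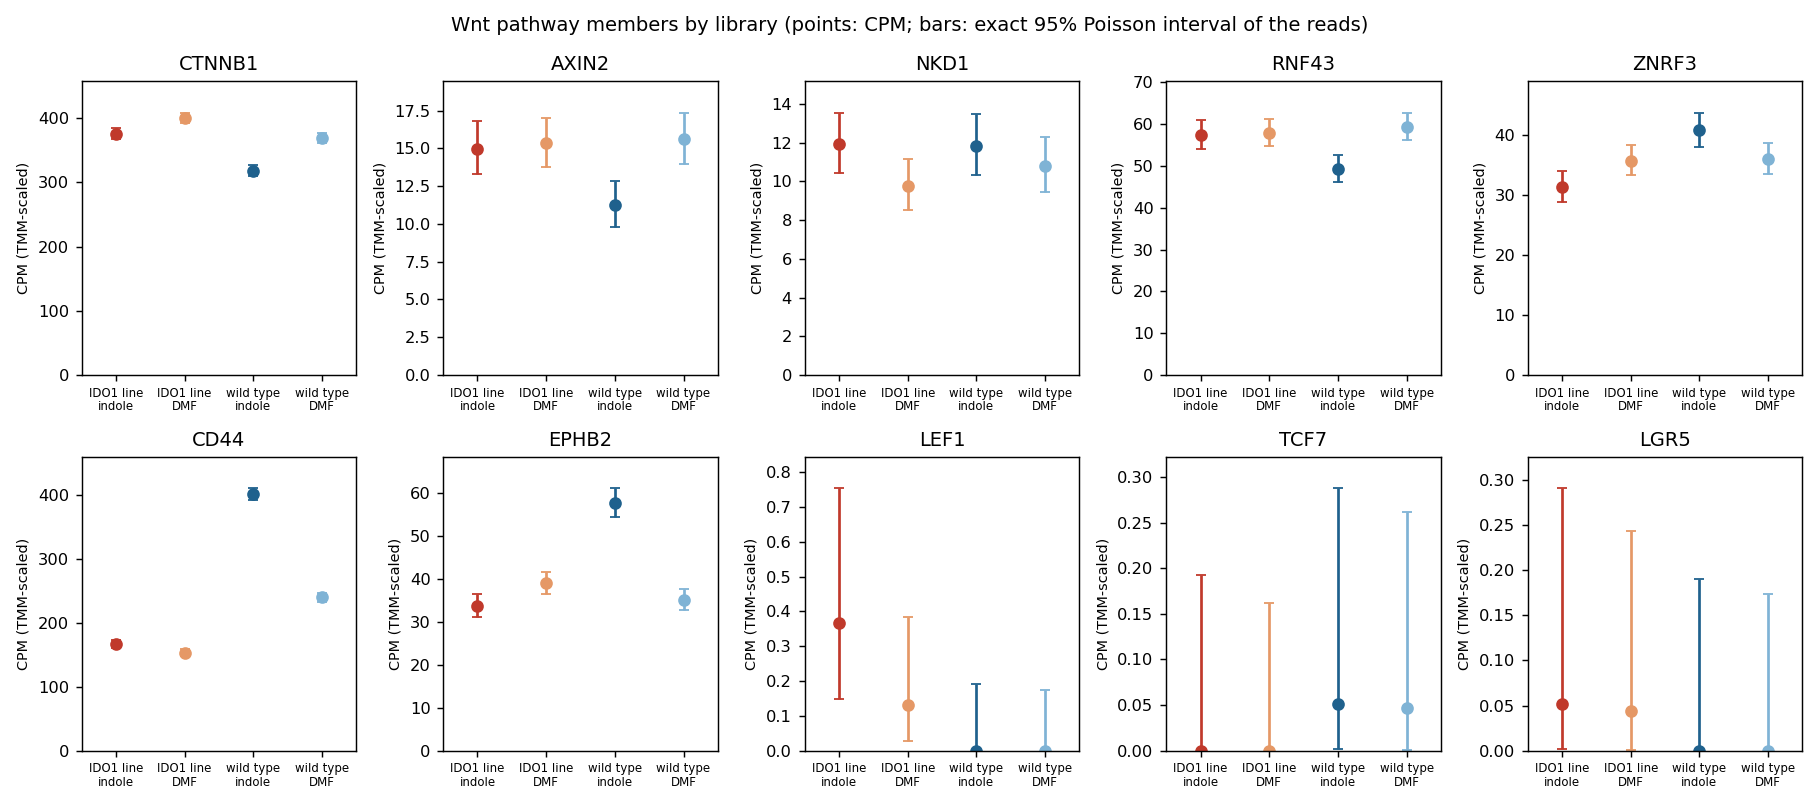
Each panel gives the TMM-scaled CPM of 1 member in the 4 libraries from 0, with the exact 95% Poisson interval of its reads as bars. CD44, EPHB2 and ZNRF3 are highest in wild type with indole, at 402, 57.6 and 40.8 CPM, and CTNNB1, AXIN2 and RNF43 are lowest there. LEF1, TCF7 and LGR5 have at most 7 reads.

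CD44, the hyaluronan receptor and adhesion protein of crypt and cancer cells, differed most among the members. It had 167 CPM in the IDO1 line with indole, 153 in that line with DMF, 402 in wild type with indole and 240.0 in wild type with DMF. Both libraries of the IDO1 line lay below both wild type libraries. IDO1 cells were 2.41-fold lower than wild type in indole (2.32 to 2.52) and in DMF its ratio to wild type was 0.639 (0.612 to 0.667). With indole CD44 was 1.09-fold higher in the IDO1 line (1.03 to 1.14) and 1.67-fold higher in wild type (1.62 to 1.74).

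EPHB2, the ephrin-B receptor that helps sort cells along the crypt, shared the high value in wild type with indole, and was lower in the IDO1 line in indole and not in DMF. It had 33.6 CPM in the IDO1 line with indole, 39.0 in that line with DMF, 57.6 in wild type with indole and 35.1 in wild type with DMF. With indole it was 1.16-fold lower in the IDO1 line (1.05 to 1.28) and 1.64-fold higher in wild type (1.49 to 1.80). The IDO1 line was 1.71-fold lower than wild type in indole (1.55 to 1.89), and in DMF its ratio to wild type was 1.11 (1.01 to 1.23).

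LGR5, the R-spondin receptor that marks crypt stem cells, had 1 read in each library of the IDO1 line and 0 in each wild type library. A count of 0 allows up to 0.155 CPM in wild type with indole and 0.141 CPM in wild type with DMF. Its paralog LGR4, named after its values were seen, had 122 and 136 reads in the IDO1 line with indole and with DMF, against 108 and 103 in wild type with indole and with DMF.

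**Figure D2:**
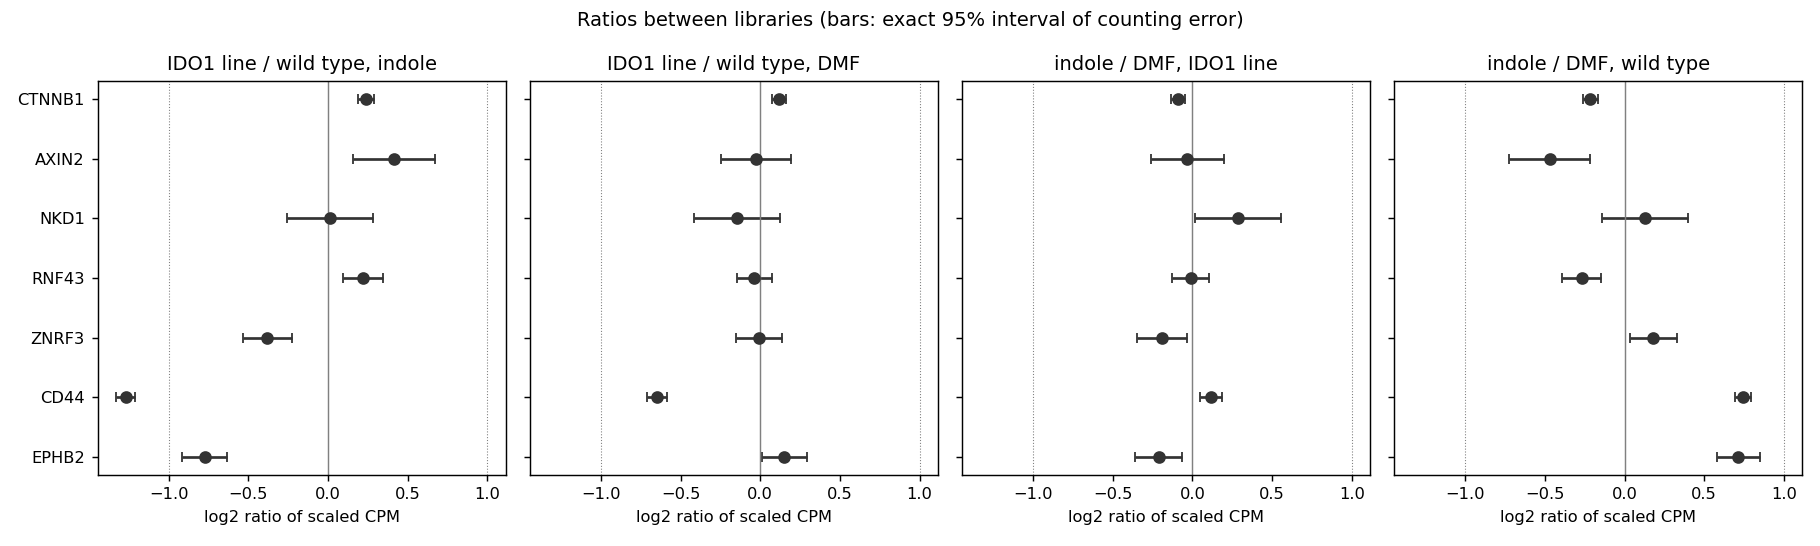
Points are log2 ratios of scaled CPM for the 7 members with at least 10 CPM, in the 4 pairs of libraries, with exact 95% counting intervals as bars and dotted lines at 2-fold. CD44 in the IDO1 line against wild type in indole, 2.41-fold lower, is the only point beyond a dotted line.

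CD44 was the 1 member of 7 that differed by 2-fold, counted on the log2(CPM + 1) scale among genes with at least 10 CPM in 1 of the 2 libraries. Between the IDO1 line and wild type in indole, CD44 was 1 of 7 at least 2-fold lower, where 2.22% of 8765 genes were, and 0 of 7 were as much higher, where 2.28% were. In DMF 0 of 7 were 2-fold higher or lower in the IDO1 line, where 0.282% and 0.165% of all genes were. With indole 0 of 7 were 2-fold higher or lower in the IDO1 line, where 0.0469% and 0.0352% of all genes were, and 0 of 7 in wild type, where 1.36% and 1.54% were. The median log2 ratio of the 7 with indole was -0.03 in the IDO1 line, where that of all genes was -0.01, and 0.12 in wild type, where that of all genes was -0.04. Between the lines it was 0.01 in indole, where that of all genes was 0.03, and -0.02 in DMF, where that of all genes was -0.01.

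Scaling by library totals moved the median log2 ratio of all genes with indole in wild type to 0.14, from -0.04 with TMM. All 7 members kept their sign there, with CD44 at 0.92 and EPHB2 at 0.87, against 0.74 and 0.70 with TMM. CTNNB1 was then at -0.04 and AXIN2 at -0.28, both below the median of all genes. With TMM the median of genes with at least 50 CPM was -0.14, where CTNNB1 was at -0.21. The genes at least 2-fold apart with indole in wild type, 118 higher and 134 lower with TMM, became 248 higher and 75 lower. In the IDO1 line against wild type in indole, 200 of 395 such genes were higher with TMM and 147 of 421 with library totals.

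An additive fit over all 4 libraries separated the effect of the line, averaged over treatments, from that of indole, averaged over lines. CD44 fell in IDO1 cells, with an effect of -0.97 on the log2 scale (SE 0.247), and passed with an adjusted p of 0.0245 by edgeR's quasi-likelihood test. It was lower in both treatments. It was 1 of 7 tested members past the threshold, where 2.45% of 13122 genes passed, 0.419% on the falling side. Over all genes 267 rose and 55 fell in this fit, against 27 and 49 among genes with at least 10 CPM in 2 libraries, where CD44 passed too. The fit leaves 1 residual degree of freedom, which holds the difference between the lines in their indole response plus library noise. With so little per gene, edgeR estimates the spread by borrowing from all tested genes. The SE and adjusted p of CD44 therefore do not measure the spread of CD44 alone. CD44 had an adjusted p between 0.00272 and 0.185 under 7 alternative settings and passed 0.05 in 4 of them, DESeq2 included with 0.0318. It did not pass with median-of-ratios size factors (0.0542), with TMM computed before the filter on low counts (0.0533), or with the line alone in the model (0.185). TMM before the filter was the setting run first, and the order was changed to the usual one for edgeR after its result was seen, so the call rests on that choice. Without either indole library the log2 ratio was -0.64, and without either DMF library it was -1.27, values with no test.

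**Figure D3:**
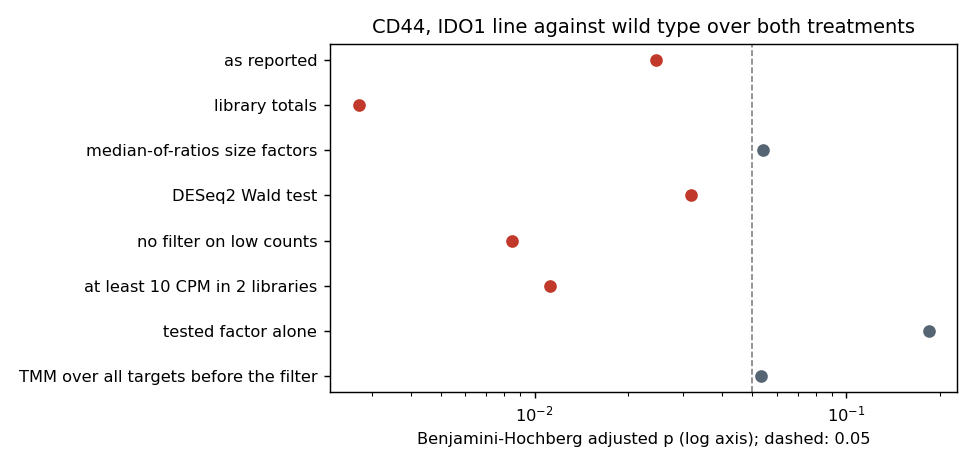
Points are the Benjamini-Hochberg adjusted p of CD44 for the line effect, on a log axis, as reported and under 7 other settings, with the dashed line at 0.05. The values run from 0.00272 with library totals to 0.185 with the line alone in the model, on both sides of the line.

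The other 6 tested members did not pass for the line. EPHB2 had -0.32 (SE 0.239), with an adjusted p of 0.750 by edgeR, and its sign rests on the indole libraries: without either of them the log2 ratio was 0.15. The remaining 5 had log2 fold changes between -0.20 and 0.18. For indole, 0 of 7 members passed, 0 at an unadjusted p under 0.05 in the reported fit, and 0 with DESeq2, where 0% of all genes passed with edgeR. CD44 had 0.44 (SE 0.245, unadjusted p 0.0830) and AXIN2 -0.24 (SE 0.254, unadjusted p 0.352) in edgeR's fit across all genes. With library totals CD44 had 0.52, with an unadjusted p of 0.0253 by edgeR, and did not pass after adjustment.

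The difference between the lines in their indole response was largest for EPHB2, at -0.91 on the log2(CPM + 1) scale as IDO1 line minus wild type. It was -0.62 for CD44, -0.36 for ZNRF3, 0.41 for AXIN2, 0.25 for RNF43, 0.14 for NKD1 and 0.12 for CTNNB1. These differences were not tested, since no group had replicates.

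The 3 genes whose pattern was most like that of CD44, among 8844 other genes with at least 10 CPM in a library, were FAM160A1, TCTEX1D4 and GALNT3, at distances of 0.054, 0.091 and 0.098 on the log2(CPM + 1) scale over 4 libraries. FAM160A1 had 7.52 and 6.97 CPM in the IDO1 line with indole and with DMF, against 18.8 and 11.1 CPM in wild type with indole and with DMF. TCTEX1D4 and GALNT3 reached 10 CPM only in wild type with indole, at 13.8 and 16.6 CPM. They thus entered the comparison only through the library where CD44 was highest. The pseudocount of 1 also weighs more on these 3 low genes than on CD44. Among the members, EPHB2 was nearest to CD44, at a distance of 0.69.

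The rest of the pathway was read from 8 lists holding 102 other genes, of which 100 are in the files and 47 reached 10 CPM in a library. For indole 0 of 73 tested genes passed. In the line fit 5 of 73 rose, where 2.03% of all genes did. All 5 were under 10 CPM in every library with no more than 5 reads in either wild type library, so they were tested through their reads in the IDO1 line and could pass only as rising. Those that rose were the ligand WNT5A, the receptor FZD8, the corepressor TLE4, the ephrin EFNB3 and N-cadherin, CDH2, which holds beta-catenin at the membrane. TLE4 had 107 and 95 reads in the IDO1 line with indole and with DMF, against 0 in both wild type libraries, and the exact intervals of its ratio began at 28.8 in indole and 23.5 in DMF. The adjusted p of the 5 was between 6.21e-08, for TLE4, and 0.0233, for EFNB3, by edgeR. WNT5A had 27 and 17 reads in the IDO1 line with indole and with DMF, against 0 in both wild type libraries. FZD8 had 37 and 31 against 3 and 5, EFNB3 22 and 34 against 5 and 2, and CDH2 68 and 65 against 0 and 1, each as IDO1 line against wild type with indole first and DMF after it.

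Markers known from embryonic kidney cell lines moved with these genes and with LEF1. All 10 on that list had reads in both libraries of the IDO1 line, with summed levels of 118 and 114 CPM in indole and in DMF. In wild type 5 of 10 with indole and 6 of 10 with DMF had reads, with summed levels of 12.9 and 13.6 CPM, and CADM1, NEFM and UCHL1 were at 0 in both. CDH2 and VIM, a marker on that list, are also known as mesenchymal genes. The part of these markers in the values of LEF1, TLE4, WNT5A, FZD8, EFNB3, CDH2 and CD44 was not tested. Leukocyte markers summed to 0.627 and 1.01 CPM in the IDO1 line with indole and with DMF, and to 1.34 and 0.940 CPM in wild type with indole and with DMF, and PTPRC was at 0 in all libraries.

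Ligands and secreted inhibitors showed 2 genes that were lower in the IDO1 line by a like amount in both treatments without passing the test. WNT16, the ligand with the most reads, had log2 ratios of -0.62 in indole and -0.63 in DMF (adjusted p 0.170 by edgeR). DKK1, the inhibitor that blocks LRP receptors and is itself a Wnt target, had -0.65 in indole and -0.67 in DMF (adjusted p 0.130 by edgeR). With indole DKK1 was 1.43-fold higher in the IDO1 line (1.29 to 1.59) and 1.40-fold higher in wild type (1.29 to 1.53). WNT9A, another ligand, was 2.24-fold lower in IDO1 cells in indole (1.75 to 2.87), with 96 reads against 217 in wild type. It was also 2.02-fold higher with indole in wild type (1.61 to 2.55), and its adjusted p for the line was 0.212 by edgeR. WNT9A reached 10 CPM only in wild type with indole, at 11.2 CPM, and had between 3.86 and 5.55 CPM elsewhere. It was therefore counted only in the pairs that use that library, and there it could be 2-fold apart only as high in that library.

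Of the receptors with at least 10 CPM, 5 of 10 were above 0 with indole in the IDO1 line, where 48.8% of all genes were, with a median of -0.0019 on the log2 scale. In wild type 10 of 11 were, where 46.2% of all genes were, with a median of 0.24. That pair uses the library farthest from the rest. LRP5, with the most reads of the list, had an indole ratio of 1.01 in the IDO1 line (0.957 to 1.06) and 1.35 in wild type (1.29 to 1.43). In the transducers and the destruction complex the median log2 ratio with indole was -0.12 in the IDO1 line and -0.11 in wild type over 11 genes. CSNK1A1, the CK1 kinase of that complex, had 9558 and 9214 reads in the IDO1 line with indole and with DMF, against 9245 and 8892 in wild type with indole and with DMF. Nuclear partners had a median of 0.03 in the IDO1 line and 0.02 in wild type over 7 genes.

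Other intestinal Wnt targets were led in reads by MYC. MYC had 12669 and 12630 reads in the IDO1 line with indole and with DMF, against 13256 and 15304 in wild type with indole and with DMF. Its ratio with indole was 1.20 in the IDO1 line (1.17 to 1.23) and 0.952 in wild type (0.930 to 0.974). Over 5 targets with at least 10 CPM the median log2 ratio with indole was 0.10 in the IDO1 line and 0.20 in wild type.

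E-cadherin, CDH1, which anchors beta-catenin at adherens junctions, was high in the same library as CD44 and EPHB2. It had 62.0 and 65.9 CPM in the IDO1 line with indole and with DMF, against 130.1 and 77.2 CPM in wild type with indole and with DMF. The IDO1 line was 2.10-fold lower in indole (1.96 to 2.25) and 1.17-fold lower in DMF (1.09 to 1.26), and its adjusted p for the line was 0.214 by edgeR. Plakoglobin, JUP, which can take the place of beta-catenin in junctions, was 1.24-fold lower in the IDO1 line in indole. Among Eph receptors and ephrins, EPHB4 had 2613 and 3530 reads in the IDO1 line with indole and with DMF, against 2653 and 2659 in wild type with indole and with DMF. Its ratio with indole was 0.883 in the IDO1 line (0.839 to 0.929) and 1.10 in wild type (1.04 to 1.16). Over 4 genes of that list with at least 10 CPM the median log2 ratio with indole was -0.10 in the IDO1 line and 0.21 in wild type. EPHB6, named after its values were seen, was at -0.24 and 0.49 in the same order.

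**Figure D4:**
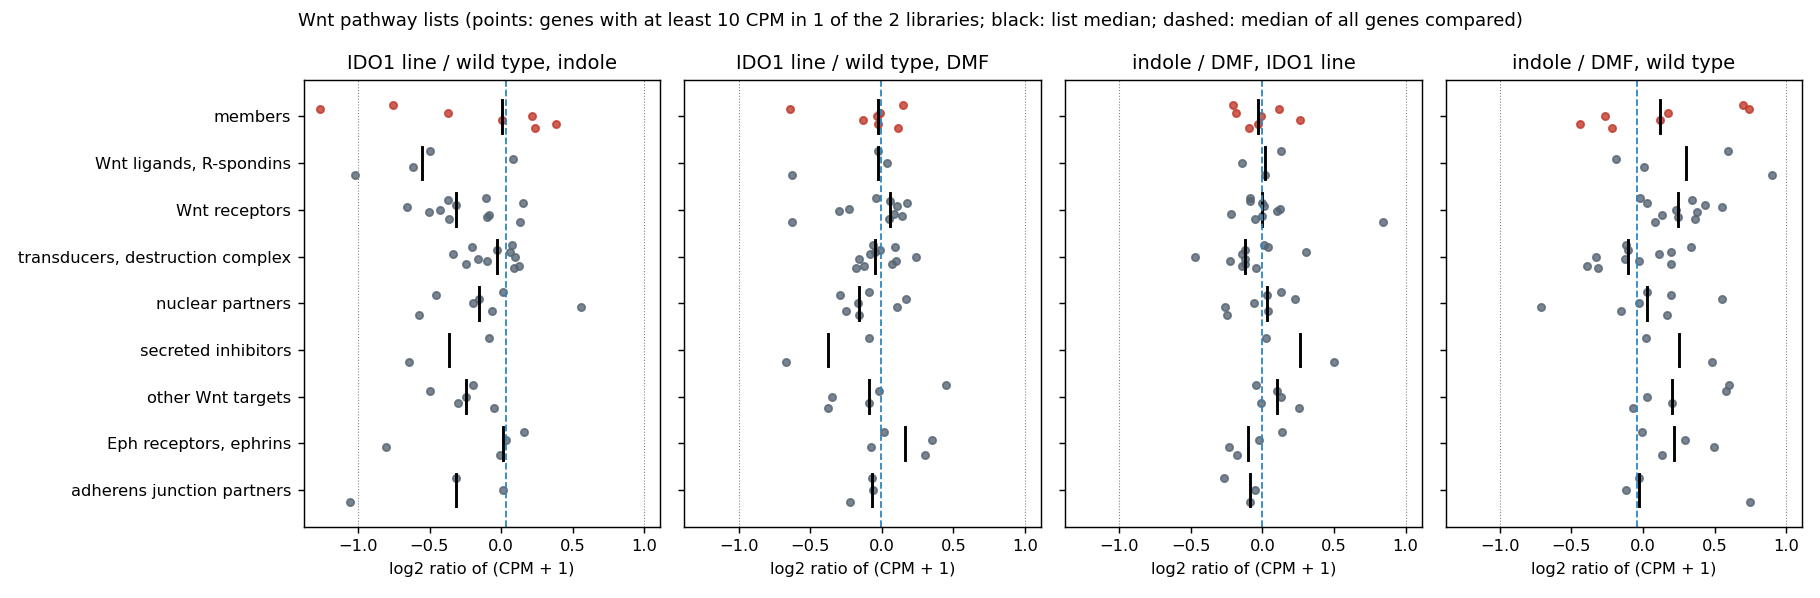
Points are log2 ratios of CPM + 1 for genes of each list with at least 10 CPM in 1 of the 2 libraries, in the 4 pairs, with list medians as black bars, the median of all genes dashed and 2-fold dotted. CD44, WNT9A and CDH1 lie beyond 2-fold in the IDO1 line against wild type in indole, and no gene shown does in the other 3 pairs. WNT9A is shown only in the pairs that use wild type with indole, where alone it reached 10 CPM.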

How the data were processed

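Messenger RNA was measured in 4 libraries from Ion AmpliSeq human transcriptome amplicons, per the labels' protocols. The deposited values are raw read counts per amplicon target, per the file headers, with no normalization; hg19 is named in the submitters' processing notes. Aligner and counter are not given in the sources used here. Although 2 replicates per group are stated with the series, a file holds a single count column, and each was taken as 1 library. Separate cultures are not mentioned, so a p-value reflects the spread among these 4 libraries alone, which may be technical. In the additive fits that spread also holds any difference between the lines in their response to indole. A response in 1 line alone is therefore harder to call.

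Counts were scaled by TMM over all targets to CPM. Pairs were compared by log2 ratios of CPM plus a pseudocount of 1, which understates the change of low genes, and by ratios of CPM with exact Clopper-Pearson intervals. Depth was 18283862 to 22736172 reads, and 3 reads, the floor for a count of 0, were worth 0.131 to 0.157 CPM. The additive fits on line and treatment used edgeR 4.0.16 on counts that passed filterByExpr, with TMM after the filter and Benjamini-Hochberg adjustment over all genes at 0.05. The line fit was checked on simulated counts with larger changes than that of CD44 and no difference between the lines in indole response. That check does not bear on the call for CD44. SEs were back-calculated from the F statistic, and so rest on a spread that edgeR shares among genes. DESeq2 1.42.0, other scalings, filters and pseudocounts were alternatives.

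The members and lists were chosen with earlier results of these data known. Genes outside the members were named if 2-fold apart in a pair or past a fit's threshold, at most 4 per list and comparison, or if they had the most reads of a list. Promoter windows are from RefSeq on GRCh38.p14 and were matched by symbol only. The window printed for a gene is that with the lowest start coordinate.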

Additional observations from a re-analysis of the deposited data

Results flagged for a closer look

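For 2 members the indole ratio pointed in opposite directions in the lines, with both counting intervals excluding 1, and the difference was not tested. EPHB2 had a log2 ratio of -0.21 in the IDO1 line and 0.70 in wild type, a difference of -0.91. ZNRF3 had -0.19 in the IDO1 line and 0.18 in wild type, a difference of -0.36. Both wild type values use the library of wild type with indole, which stood apart from the other 3.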

How the results depend on the processing

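For the line, 1 member passed in the reported fit, and 0 passed with median-of-ratios size factors, with the line alone in the model, or with TMM before the filter. That last order was the first one run, and the reported order replaced it after seeing the data. The counts of members in the 4 pairs and for indole did not move under any alternative run. Of 308 recomputed member values, 20 had another sign, none of them past a threshold. The 308 include ratios at other CPM minimums, which cannot change. They also include values without a library, which repeat the ratio of a pair already given. With library totals, AXIN2, RNF43 and ZNRF3 had log2 ratios of 0.07, 0.06 and 0.08 between the lines in DMF, against -0.02, -0.04 and -0.01 with TMM. For indole, EPHB2 and ZNRF3 were at -0.21 and -0.19 without either wild type library, against 0.26 and 0.0043 over all 4. Leaving out a library leaves no residual degree of freedom and so no test.

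Over all genes, with indole in wild type 118 were higher and 134 lower at 2-fold, or 248 and 75 with library totals. The IDO1 line against wild type in indole gave 200 higher of 395, or 147 of 421 with library totals. At 50 CPM or more, 30 were higher and 88 lower with indole in wild type, 103 and 74 in the IDO1 line against wild type in indole, 5 and 7 between the lines in DMF (24 and 14 as reported) and 2 and 1 with indole in the IDO1 line (4 and 3 as reported). At 1 CPM or more the counts were 220 and 155, 418 and 338, 211 and 25, and 7 and 7 in the same order, and a pseudocount of 5 gave 57 and 92, 123 and 117, 17 and 8, and 3 and 2. The line fit called 267 rising and 55 falling, or 74 and 12 with DESeq2, 27 and 49 with at least 10 CPM in 2 libraries and 201 and 7 with the line alone. The indole fit called 0, with 448 at an unadjusted p under 0.05, or 6 with library totals, 10 without a filter and 5 with at least 10 CPM in 2 libraries, none of them a member.

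No paired analysis was possible because the labels number no replicates and each group has 1 library. Depth limits LEF1, TCF7 and LGR5, whose reads were at or near the floor. Whether their targets also amplify poorly was not tested, so these counts do not show that the genes are absent.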
